A study of Mus musculus with 2 samples.

Results

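The classical complement genes considered here were C1qa, C1qb, C1qc, C1ra, C1s, C2, C3, C4b and Serping1, 9 genes that encode the C1 complex, the components it acts on and its inhibitor. They were chosen by their function and with their differences between these arrays already known, so that the differences given here are a description and carry no test. Probe sets were assigned by gene symbol in the platform annotation, updated to RefSeq symbols, in which C1s appears as C1s1. Of the 9 genes, 8 had 1 probe set each, and C3 was not listed in that annotation and was not analysed here. The whole series holds 19936 named nuclear genes.

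Expression was measured in gastrocnemius muscle on 2 arrays, each with RNA pooled from 3 mice of the C57BL/6 strain. The control mice carried floxed PGC-1β L2 alleles (gene Ppargc1b) without a Cre transgene, although the labels give this genotype as wild-type. The PGC-1β(i)skm-/- mice carried the same alleles and the HSA-Cre-ERT2 transgene, a tamoxifen-dependent recombinase expressed from skeletal actin regulatory elements in myofibres, which deletes exon 5 of Ppargc1b. All mice were male, were given tamoxifen from 7 weeks of age, 1 mg on each of 5 days, and were 8 weeks old at analysis. Because only the mutants carry the transgene, its effect and that of the deletion cannot be told apart. The deletion is restricted to myofibres, whereas the arrays measure RNA of the whole muscle with its connective tissue, vessels and resident immune cells.

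The signal of Ppargc1b was 7.87 (log2) on the control array and 7.06 on the mutant array. The sarcomeric actin Acta1 and the muscle creatine kinase Ckm had log2 signals of 13.88 and 13.82 on the control array, in keeping with the labelled tissue. The deposited values are log2 signals, and their difference is given as PGC-1β(i)skm-/- minus control. With 1 array per genotype there is no error from mice and no test, and the precision of every value is limited by having so few arrays.

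The classical pathway begins with C1, in which the recognition molecule C1q, built from A, B and C chains, carries the proteases C1r and C1s. When C1q binds an antibody or another target, C1r cleaves C1s, which in turn cleaves C4 and C2, and their fragments form the convertase that activates C3. The inhibitor encoded by Serping1 inactivates C1r and C1s. In most tissues macrophages and related myeloid cells make C1q, whereas C1r, C1s, C3 and the C1 inhibitor are also made by fibroblasts and other stromal cells.

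The 3 C1q chain genes, the protease gene C1ra and the inhibitor gene Serping1 had a higher signal in PGC-1β(i)skm-/- muscle, each with a ratio to control of 1.2 or more, the ratio that the study's methods use for higher expression. C4b and C2 were higher by less, and C1s was slightly lower. Thus 5 of the 8 measured genes had a ratio of 1.2 or more, a share to be read beside 1.64% of all named genes, and none had a ratio of 0.8 or less, beside 0.652% of all named genes. At a ratio of 1.1 or more there were 7 of 8, beside 10.5% of all named genes. A difference above 0 was found in the same 7 genes, beside 49.6% of all named genes. The median log2 difference was 0.28 over the 8 genes and -0.00055 over all named genes. Since the genes were picked with these differences known, their shares say nothing beyond these values.

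**Figure D1:**
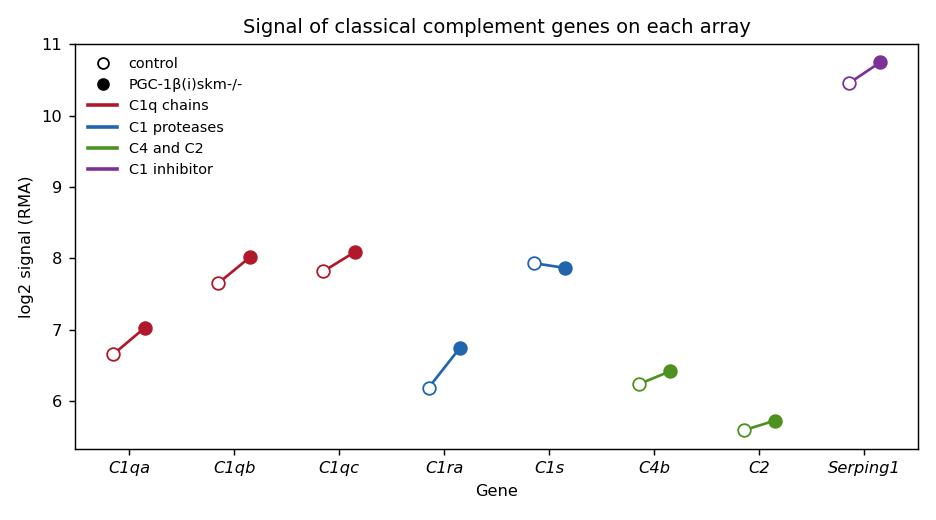
Log2 signal (vertical axis) of the 8 measured classical complement genes (horizontal axis) on the control array (open points) and the PGC-1β(i)skm-/- array (filled points), coloured by role, with 1 array of 3 pooled mice per genotype and hence no error bars. The line joining the points goes up for each gene except C1s, and is steepest for C1ra. Heights of different genes are not comparable, because each probe set has its own affinity.

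C1qa, encoding the A chain (probe set 10517517), had a log2 signal of 6.66 in control and 7.03 in mutant muscle, a difference of 0.37. C1qb, encoding the B chain (probe set 10517508), had signals of 7.65 and 8.02, a difference of 0.36. C1qc, encoding the C chain (probe set 10517513), had signals of 7.82 and 8.09, a difference of 0.27. All 3 chains were thus higher on the mutant array, within 0.10 of each other on the log2 scale, with ratios of 1.29, 1.29 and 1.21. The last lies just past the threshold of 1.2, at rank 298 of all named genes from the highest difference, while C1qa and C1qb were at ranks 56 and 72. Among the 1000 genes of nearest mean signal, 8 had a difference as high as that of C1qa, 2 as high as that of C1qb and 5 as high as that of C1qc.

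The C1q genes lie side by side on chromosome 4, in the order C1qb, C1qc and C1qa. In whole muscle, more cells of a type and more RNA per cell cannot be told apart. Of macrophage markers other than C1q, 16 of 20 were above 0, beside 49.6% of all named genes, at a median of 0.11. A ratio of 1.2 or more was found in 3 of the 20, beside 1.64% of all named genes. These were Mrc1, a mannose receptor (log2 difference 0.31), Tyrobp, a signalling adaptor of myeloid receptors (0.30), and Csf1r, the receptor of the macrophage growth factor (0.27). Lyz2, a lysozyme, had a difference of 0.25, Adgre1, a surface receptor of mature macrophages, of 0.14, and Cd68 of 0.06. The 4 markers below 0 were Mertk at -0.14, Fcgr1 at -0.06, Ms4a7 at -0.04 and Aif1 at -0.0021. The signals of the 20 markers, summed on the linear scale, were 2324 in control and 2582 in mutant muscle, a ratio of 1.11. The differences of C1qa and C1qb exceeded those of all 20 markers, and that of C1qc exceeded those of 18. Outside these markers, C3ar1, a complement receptor gene carried mainly by myeloid cells, was at 0.38, above all 3 chains. The other complement receptor genes measured were below all of them. No marker had a signal of 0, since these log2 signals have no true zero. Of the 20 markers, 7 had a mean log2 signal under 6. The part of macrophage number in the C1q difference was not tested.

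C1ra, encoding the protease C1r (probe set 10541678), had a log2 signal of 6.18 in control and 6.75 in mutant muscle. The difference of 0.56 (ratio 1.48) was the largest of the classical complement genes and at rank 5 of all named genes. Only 1 of the 1000 genes of nearest mean signal had a difference as high. These values rest on the probe set of C1ra alone. The brighter probe set annotated to both C1rb and C1ra had a difference of 0.34 (ratio 1.27), below those of C1qa and C1qb. C1s, encoding the protease that C1r activates (probe set 10547740), had signals of 7.93 and 7.87, a difference of -0.07 (ratio 0.954). Of the 1000 genes of nearest signal, 283 had a difference as low as that of C1s. The proteases of the C1 complex, which occur in equal number in the protein complex, therefore differed by 0.63 on the log2 scale in their mutant to control difference.

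The contrast of macrophage-made with stroma-made components was not one of 2 separate groups. The median log2 difference was 0.36 for the 3 C1q chains and 0.25 for C1ra and C1s, the latter being the midpoint of one gene above and one below all C1q chains. By its own probe set, C1ra exceeded the highest C1q chain by 0.19. The probe set it shares with C1rb, at 0.34, did not exceed that chain. Fibroblast markers lay between the proteases, with 19 of 19 above 0, beside 49.6% of all named genes, and a median of 0.14. Differences ran from 0.05 for Pdgfra, a receptor of fibro-adipogenic cells, to 0.28 for Mfap5, a microfibril protein. Lum, encoding lumican, had a difference of 0.24, the collagen genes Col1a2 and Col1a1 of 0.22 and 0.18, Pi16, a marker of adventitial fibroblasts, of 0.21, and Dcn, encoding decorin, of 0.14. Summed on the linear scale, their signals were 17856 in control and 19877 in mutant muscle, a ratio of 1.11. C1ra was above and C1s below all 19 of these markers. The part of fibroblast content in these differences was not tested.

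**Figure D2:**
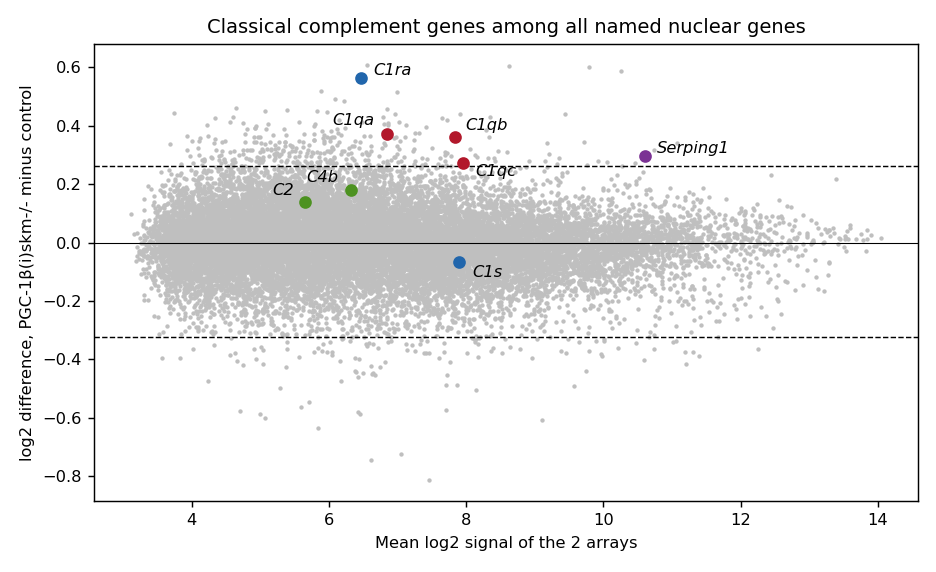
Log2 difference (vertical axis, mutant minus control) against the average of both log2 signals (horizontal axis) for all named nuclear genes, in grey, with C1q chains in red, C1 proteases in blue, C4b and C2 in green and Serping1 in purple. Dashed lines mark ratios of 1.2 and 0.8. C1ra lies near the upper edge of genes of its signal, Serping1 stands out among bright genes, and C1s lies within the bulk.

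The gene order helps to set the protease values side by side. On chromosome 6 the C1r-type and C1s-type genes form 1 stretch, in the order C1rl, C1ra, C1s, C1rb and C1s2, where C1rb and C1s2 are copies of C1ra and C1s found in the mouse. C1rl, encoding a C1r-like protease, had log2 signals of 5.52 and 5.75, a difference of 0.23. C1s2 had signals of 6.25 and 6.21, a difference of -0.04. The probe set annotated to both C1rb and C1ra (10541683) had signals of 7.53 and 7.87, a difference of 0.34 (ratio 1.27). All 3 probe sets of C1r-type genes were higher and both probe sets of C1s-type genes slightly lower on the mutant array, and C1s lies between C1ra and C1rb on the chromosome. Because C1rb resembles C1ra, the annotation cannot separate the transcripts of C1ra and C1rb in the shared probe set, and probes for C1s and C1s2 may also share targets.

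**Figure D3:**
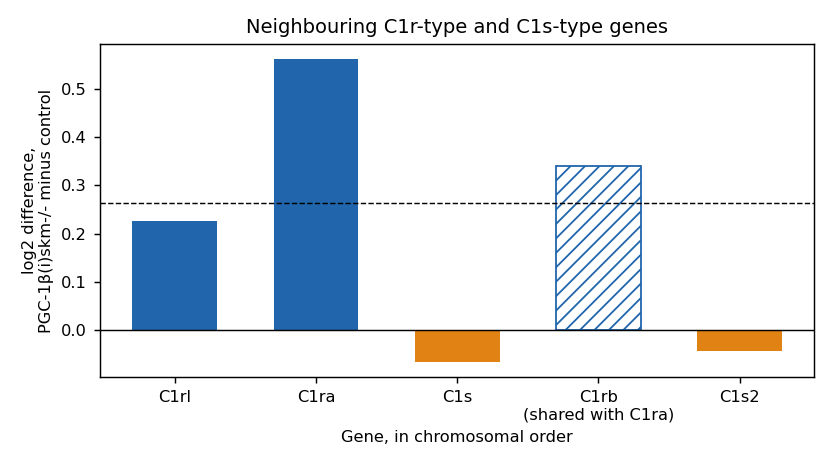
Log2 difference (vertical axis, mutant minus control) of the neighbouring C1r-type (blue) and C1s-type (orange) genes in their chromosomal order (horizontal axis). The hatched bar is the probe set annotated to both C1rb and C1ra, and the dashed line marks a ratio of 1.2. Differences of C1r-type genes run from 0.23 to 0.56, and those of C1s-type genes are -0.07 and -0.04.

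Promoter windows of C1ra, its copy C1rb and C1s are shown because C1ra had the largest difference of the classical genes, its neighbour C1s differed little, and C1rb shares a probe set with C1ra. Each runs from 250 bases before to 50 bases after an annotated transcription start, 5′ to 3′ along the gene, and was taken from RefSeq annotation of GRCm38.p6 (C1ra, chr6:124512371-124512670, plus strand; C1rb, chr6:124570180-124570479, plus strand; C1s, chr6:124542310-124542609, minus strand). Capitals mark a match to TTCNNNGAA, the letters of the gamma-activated site bound by STAT factors.
C1ra: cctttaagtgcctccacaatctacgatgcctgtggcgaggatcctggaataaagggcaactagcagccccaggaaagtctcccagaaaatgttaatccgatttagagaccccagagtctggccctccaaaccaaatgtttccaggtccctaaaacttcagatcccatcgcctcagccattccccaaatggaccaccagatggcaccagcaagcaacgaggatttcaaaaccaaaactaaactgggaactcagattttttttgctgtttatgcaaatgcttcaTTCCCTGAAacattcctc
C1rb: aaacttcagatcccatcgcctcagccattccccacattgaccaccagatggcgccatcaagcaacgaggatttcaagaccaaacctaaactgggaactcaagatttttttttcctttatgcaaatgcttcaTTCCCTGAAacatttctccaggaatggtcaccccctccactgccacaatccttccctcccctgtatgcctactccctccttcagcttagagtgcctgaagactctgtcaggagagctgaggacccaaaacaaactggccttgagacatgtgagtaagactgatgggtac
C1s: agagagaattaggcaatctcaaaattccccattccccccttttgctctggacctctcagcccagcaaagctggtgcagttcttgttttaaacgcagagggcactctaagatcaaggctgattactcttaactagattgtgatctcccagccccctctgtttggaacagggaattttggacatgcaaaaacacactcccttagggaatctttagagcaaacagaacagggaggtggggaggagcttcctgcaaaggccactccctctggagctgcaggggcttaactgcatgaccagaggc

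In C1ra the match TTCCCTGAA begins at position 33, counting the start as 1, and in C1rb at position -119. It lies in a stretch that both windows hold at different distances from the annotated start, with 139 of 148 aligned bases identical (93.9%). The windows of C1s and C1s2 were 64.9% identical over 248 aligned bases, and those of C1ra and C1s 58.8% over 260. With the window of another annotated start of C1s, not shown, these values were 60.6% over 254 and 60.7% over 262. Windows of C1qb and C1qc, aligned in the same way, were 60.9% identical over 256. The level of unrelated windows was not computed, so that values of this size are not read as shared sequence. Neither window of C1s held any of the 5 motifs searched. TTCNNNGAA, which reads the same on both strands, was found in 8.3% of all 32851 windows of this length, so that its presence in C1ra and C1rb is a description of these letters and not of a binding site.

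C1qb and C1qc are shown in the same way (chr4:136886151-136886450, minus strand, and chr4:136892865-136893164, minus strand), as genes of 1 molecule with similar differences. Capitals mark GAGGAAG, a sequence of the type bound by the myeloid factor PU.1, here on the opposite strand as CTTCCTC.
C1qb: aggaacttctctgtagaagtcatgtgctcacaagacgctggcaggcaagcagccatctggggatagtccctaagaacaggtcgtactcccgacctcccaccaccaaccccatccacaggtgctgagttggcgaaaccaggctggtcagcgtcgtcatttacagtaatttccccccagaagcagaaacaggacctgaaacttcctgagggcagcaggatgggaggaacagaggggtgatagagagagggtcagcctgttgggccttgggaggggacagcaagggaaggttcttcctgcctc
C1qc: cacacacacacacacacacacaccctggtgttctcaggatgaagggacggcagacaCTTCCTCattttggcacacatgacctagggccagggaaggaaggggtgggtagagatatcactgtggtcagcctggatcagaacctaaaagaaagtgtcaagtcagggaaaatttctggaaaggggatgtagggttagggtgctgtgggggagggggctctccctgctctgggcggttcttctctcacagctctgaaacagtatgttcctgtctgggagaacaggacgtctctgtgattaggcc

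The match in C1qc begins at position -194, and C1qb had no match to any of the 5 motifs. GAGGAAG was found on either strand in 13.6% of all windows. Of the other 3 motifs searched on both strands, GAAANNGAA of interferon-stimulated genes was found in 8.56% of all windows. GGGNNTTCC, which fits only some forms of NF-κB sites, was found in 5.82%, and other forms were not searched. AAGGTCA, the half-site of oestrogen-related receptors with which PGC-1 coactivators act, was found in 4.72%. None of these 3 occurred in the windows of C1qb, C1qc, C1ra or C1s. GAAANNGAA and TTCNNNGAA can overlap in their GAA letters.

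C4b, encoding complement C4 (probe set 10450242), had a log2 signal of 6.23 in control and 6.42 in mutant muscle, a difference of 0.18 (ratio 1.13). C2, encoding the protease of the classical C3 convertase (probe set 10450344), had signals of 5.59 and 5.73, a difference of 0.14 (10.1% higher). Both were higher on the mutant array without reaching a ratio of 1.2. Among the 1000 genes of nearest signal, 72 had a difference as high as that of C4b and 165 as high as that of C2. C4a, the sex-limited C4 copy, had signals of 4.84 and 5.29, a difference of 0.45 (ratio 1.37). C2 and C4a were dim, which here means a mean log2 signal under 6, close to the median of all probe sets of 6.00 on the control array, and signals of C4a and C4b may overlap because the genes are near-identical.

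Serping1, encoding the C1 inhibitor (probe set 10484463), had a log2 signal of 10.45 in control and 10.75 in mutant muscle, a difference of 0.30 (ratio 1.23). Its probe set was bright, and differences of bright probe sets were less spread. Of the 1000 genes of nearest signal, 3 had a difference as high. The standard deviation of the difference over those genes was 0.10, whereas it was 0.13 over the 1000 genes nearest to C1ra. The difference of Serping1 was above those of all 19 fibroblast markers, and that of C4b above 15 of them. The inhibitor and its target C1r were thus both higher, and its other target C1s was not.

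Outside the classical pathway, 42 complement genes of 7 further lists were measured. Of these, 26 had a difference above 0, beside 49.6% of all named genes, 3 had a ratio of 1.2 or more, beside 1.64%, and none had a ratio of 0.8 or less, beside 0.652%. Their median difference was 0.03. Dim genes made up 21 of the 42. The 3 with a ratio of 1.2 or more were C7, a component of the membrane attack complex (log2 signals of 7.52 and 7.94, difference 0.42), C3ar1, the receptor of the anaphylatoxin C3a (6.60 and 6.98, difference 0.38), and C8a, encoding a chain of C8 (5.06 and 5.35, difference 0.28). C8a was dim, and C3ar1 is carried mainly by myeloid cells.

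The counts that follow are to be read beside all named genes, of which 49.6% were above 0 and 1.64% had a ratio of 1.2 or more. Complement receptors had 7 of 8 genes above 0 and a median of 0.15. Itgb2, the common chain of leukocyte integrins, was at 0.22 and C5ar2, a receptor of C5a, at 0.20. Of the 8 receptors, 6 were dim, Itgb2 among them. In the alternative pathway Cfp, encoding properdin, had a difference of 0.23 and Cfb, encoding factor B, of 0.13, and these were the 2 genes measured of 3. The terminal pathway had 5 of 7 genes above 0 and a median of 0.06, and C8g, encoding another chain of C8, was at -0.30. Of these 7 genes, 6 were dim, C8g among them. Most of the 8 receptor genes and both of the 2 alternative pathway genes were thus above 0. C3ar1 alone among them had a ratio of 1.2 or more. Lists this short are a description only. The lectin pathway, which uses its own proteases with C4 and C2, had 4 of 8 genes above 0 and a median of 0.000075. Masp2 was at 0.22, Colec11, a collectin, at 0.12 and Mbl1, a mannose-binding lectin, at -0.10. Of these 8 genes, 4 were dim, including Masp2 and Mbl1.

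Regulators other than Serping1 lay on both sides of 0. Among all named genes 49.6% were above 0, 1.64% had a ratio of 1.2 or more and 0.652% had a ratio of 0.8 or less. Of the soluble regulators, 2 of 4 were above 0, with a median of -0.0025, and Clu, encoding clusterin, was at 0.14, Cfi, encoding factor I, at -0.07 and Vtn, encoding vitronectin, at -0.01. Of the membrane regulators, 2 of 7 were above 0, with a median of -0.01, and Cd59a, an inhibitor of the membrane attack complex, was at -0.15, Cr1l, encoding the rodent regulator Crry, at 0.14 and Csmd1 at -0.06. Proteins that bind C1q had 4 of 6 genes above 0 and a median of 0.04, with the phagocytic receptor Megf10 at 0.23, Lrp1 at 0.10 and C1qbp, a mostly mitochondrial protein, at -0.14. Genes that share the C1q domain without being complement components had 14 of 24 above 0, a median of 0.02 and no gene at a ratio of 1.2 or more or 0.8 or less, the highest being C1qtnf2 at 0.25, followed by Cbln4 and C1qtnf4 at 0.20 each. The C1q chains were above all 24 genes of this domain family, which is a description, since the chains were picked with their differences known.

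**Figure D4:**
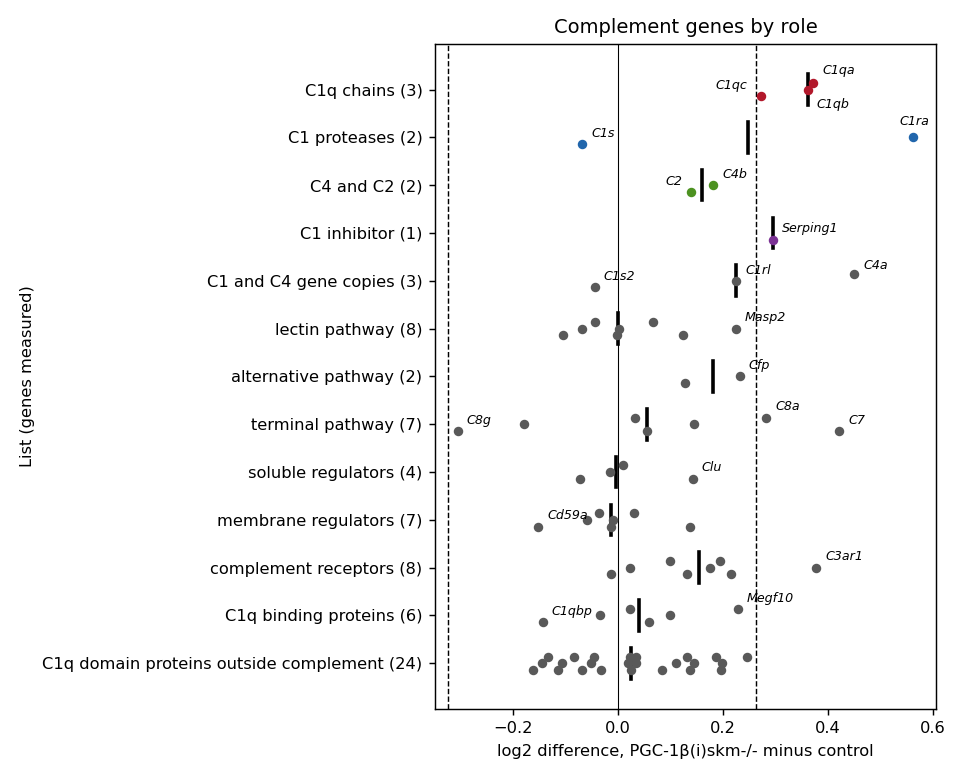
Log2 difference (horizontal axis, mutant minus control) of each measured complement gene by list (vertical axis, with the number of genes measured), where black bars give each median and dashed lines ratios of 0.8 and 1.2. Classical components are coloured and other genes grey. Medians of the lectin pathway and of both groups of regulators lie within 0.02 of 0, and C7 and C3ar1 lie among the classical genes.

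Among other cell types, markers of tendon and cartilage had 10 of 10 genes above 0, beside 49.6% of all named genes, and a median of 0.28. A ratio of 1.2 or more was found in 7, beside 1.64% of all named genes. The highest were Prg4, encoding lubricin, at 0.61, Chad at 0.60, and Comp and Fmod at 0.32 each. The summed signal of all 10 was 5012 in control and 6361 in mutant muscle. Mast cell markers had 5 of 8 genes above 0 and a median of 0.08, with the proteases Cpa3 at 0.61, Mcpt4 at 0.41 and Tpsb2 at 0.25 and Ms4a2, encoding a chain of the IgE receptor, at -0.17. Summed, the 8 markers were at 379 in control and 450 in mutant muscle, and 6 of them, including Mcpt4, were dim. The part of these cell types in the complement differences was not tested.

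None of the genes in the remaining marker lists had a ratio of 1.2 or more or of 0.8 or less. Over all named genes these shares were 1.64% and 0.652%, and 49.6% were above 0. Endothelial markers had 8 of 10 genes above 0 and a median of 0.05, with Cdh5 at 0.16, Tek at 0.14, Emcn at -0.13 and Tie1 at -0.11. Adipocyte markers had 5 of 8 above 0 and a median of 0.05, with Retn at 0.23, Lep at 0.21, Pck1 at -0.11 and Plin1 at 0.08. Neutrophil markers had 3 of 8 above 0 and a median of -0.07, with Ngp at -0.17, Camp at -0.12, S100a9 at -0.10 and Ly6g at 0.09, and all were dim. Markers of T, NK and B cells had 5 of 9 above 0 and a median of 0.03, with Cd3e at 0.16, Klrb1c at 0.10, Cd79a at 0.09 and Ms4a1 at 0.07, and all were dim. Markers of hepatocytes, the main source of plasma complement, had 3 of 7 above 0 and a median of -0.01, with Alb at 0.15, Tat at -0.13, Apoh at 0.12 and Ttr at -0.12. Of the red cell markers 2 of 6 were measured, Slc4a1 at -0.14 and Alas2 at -0.04, with a median of -0.09. Myofibre genes had 9 of 12 above 0 and a median of 0.01, with Myh1 at -0.16, Myh7 at -0.04, Ckm at 0.04 and Tnni2 at 0.03.

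Several complement genes, among them C2, C4b, Cfb, C1ra and Serping1, are known to respond to interferon-γ in other settings. Genes induced by interferon-γ had 4 of 12 measured above 0, beside 49.6% of all named genes, and a median of -0.11. A ratio of 0.8 or less was found in 2 of the 12, beside 0.652% of all named genes. Iigp1, an interferon-inducible GTPase, had log2 signals of 6.98 and 6.24, and Cxcl9, a chemokine, 7.41 and 6.69. Gbp4 was at -0.20 and Gbp3 at -0.16. The part of interferon-γ in the complement differences was not tested. Genes of interleukin-6 signalling and of the acute phase, another known input to complement genes, had 7 of 15 above 0 and a median of -0.01, with Lcn2 at -0.24, Socs3 at 0.14, Cebpd at -0.14 and Mt1 at 0.13.

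**Figure D5:**
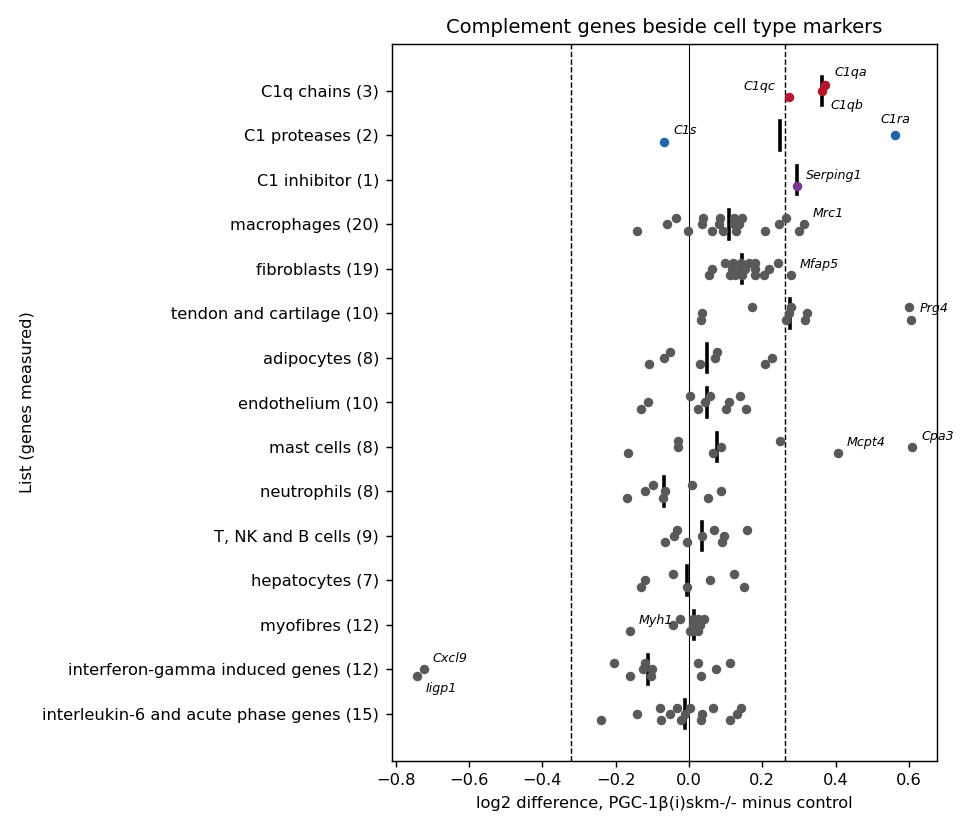
Log2 difference (horizontal axis, mutant minus control) of C1q chains, C1 proteases and the C1 inhibitor above marker genes of other cell types and genes of interferon-γ and interleukin-6 signalling (vertical axis, with the number of genes measured). Black bars give each median and dashed lines ratios of 0.8 and 1.2. C1qa and C1qb lie to the right of all 20 macrophage markers, C1ra to the right and C1s to the left of all 19 fibroblast markers, and Iigp1 and Cxcl9 are the lowest points.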

How the data were processed

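Labelled cDNA from 150 ng of total RNA, pooled from 3 mice per genotype, was hybridized to Affymetrix Mouse Gene 1.0 ST arrays. The authors extracted intensities with GeneChip Command Console 3.2 and deposited log2 signals per probe set, computed by RMA in Expression Console 1.1. RMA makes the signal distributions of both arrays alike, so that a shift of all genes would be hidden, and it compresses differences of dim probe sets. No detection call was used. A genome build for them is not given in the sources read here.

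Of 35556 probe sets, 21789 had 1 gene symbol, 1621 had several and 12146 were not listed. Symbols were updated by Entrez ID through RefSeq genes of GRCm38.p6 (21698 matched). For 997 genes with several probe sets, that of highest mean signal was taken. Ratios of 1.2 and 0.8 follow the study's methods. The members and the 22 lists beyond them were chosen with earlier results of these data known. Genes named are all members and their copies, complement genes past either ratio, up to 3 genes of largest absolute difference in each complement list up to 4 in each marker or signalling list, and Cd68, Csf1r, Adgre1, Pdgfra, Col1a1, Dcn and Ppargc1b. Acta1 is named outside this rule, as a check of the tissue, and so are the macrophage markers below 0. No test was made, because 1 array per genotype gives no error, and no genes of similar pattern were sought, because 2 arrays give no measure of likeness. The calculation was tested on simulated data. Calculations used Python 3.11.15, pandas 2.3.3, numpy 2.4.6 and statsmodels 0.14.6. Of the 9 members, 5 matched a RefSeq promoter window by symbol.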

Additional observations from a re-analysis of the deposited data

How the results depend on the processing

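The differences of the 8 genes moved by less than 0.05 (log2) when a loess trend with signal (span 0.3) was subtracted. Averaging the probe sets of a gene could not move them, because each of the 8 had 1 probe set. Nor could subtracting the median difference, which was -0.00055, move them by more than that amount. Averaging C1ra with the probe set it shares with C1rb, a setting chosen after seeing the data, gave 0.45. With a ratio of 1.5 or more, 0 of the 8 genes passed, and 3 (C1qb, C1qc and Serping1) passed 1.2 when genes under a mean log2 signal of 7 were left out, where the share of all named genes was 0.817%. Leaving out genes under a mean log2 signal of 6, medians became -0.044 for the copies of C1 and C4 genes, 0.064 for soluble regulators, 0.057 for hepatocyte markers, 0.42 for the terminal pathway (C7 alone), 0.29 for complement receptors and 0.43 for mast cell markers, with fewer genes in each. The other medians of lists beyond the members that were recomputed stayed within 0.05 of their values. No gene of the neutrophil or of the T, NK and B cell list remained at this limit, so that no median could be given there. No paired analysis was possible because each genotype has 1 array. Nor could an array be left out.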

Other observations

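Counting only genes annotated as protein-coding, C4b, Cfb and C2 lie within a stretch of 8 genes on chromosome 17. Of these, 5 genes that are not complement components stand between C4b and Cfb. The dim C4 copy C4a, with a difference of 0.45, is not among the genes counted, and its place was not examined. C4b, Cfb and C2 had log2 differences of 0.18, 0.13 and 0.14. The genes counted between them are named for their position and not for their values. Cyp21a1, encoding the steroid 21-hydroxylase, was at 0.12, Dxo at 0.03, Nelfe at 0.0040, Stk19 at -0.01 and Skiv2l at -0.08. All are differences between single arrays, and no test was made.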
